A study of Homo sapiens with 26 samples.

Results

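The genes described here are the human subunits and receptors through which a neuron senses glutamate, GABA and acetylcholine at nicotinic sites. They were taken by symbol: 63 of the 26485 genes in the count tables carry an AMPA (GRIA), kainate (GRIK), NMDA (GRIN), delta (GRID), metabotropic glutamate (GRM), GABA-A (GABR), GABA-B (GABBR) or nicotinic (CHRN) receptor name. By class there were 16 nicotinic, 4 AMPA, 5 kainate, 7 NMDA, 2 delta, 8 metabotropic glutamate, 19 GABA-A and 2 GABA-B genes. No measured value entered the choice.

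All libraries came from KELLY, a MYCN-amplified neuroblastoma cell line of human origin. For the culture part, 3 derivatives had been made with a lentiviral vector under doxycycline control, with no insert (EV) or with a hairpin directed at RUNX1T1 (sh4 or shAMB). Doxycycline, or DMSO as its solvent, was given for 72 h to 3 replicates of each, so that 18 culture libraries form 6 groups. A further 8 libraries were from KELLY tumours in mice, 4 with the labels control, WT and control food and 4 with the labels RUNX1T1 KO and doxycycline food. All 26 libraries thus share the KELLY background, and all 18 culture libraries carry the vector. The labels do not say which vector the tumours carried, and the study describes KELLY cells with an inducible hairpin in NSG mice, a strain without mature T, B and NK cells, rather than a knock-out. The study used its hairpin sh #1, which was based on an Ambion siRNA, both in culture and in mice. For its RNA sequencing too, it names that hairpin in culture and in mice, and its other hairpin in culture only. The name shAMB may stand for sh #1, so the tumours and the shAMB line may share it, but the labels do not say so. A sort of transduced cells for GFP is described for another line and not for KELLY, so whether each KELLY line is a pool or 1 clone is not given in the sources used here. The culture columns bear the words Neg and Pos, taken here as without (DMSO) and with doxycycline, and every culture direction rests on that. Nothing in the labels says that replicates were separate cultures, so p-values measure only the spread between these libraries, which may be technical.

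Fast transmission by these families runs through ion channels that open on binding: AMPA, kainate and NMDA receptors for glutamate, GABA-A receptors for GABA and nicotinic receptors for acetylcholine. Metabotropic glutamate and GABA-B receptors act more slowly through G proteins. Nicotinic receptors of the CHRNA3, CHRNA5 and CHRNB4 type carry transmission in autonomic ganglia, of which the sympathetic ones share their lineage with neuroblastoma.

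RUNX1T1 itself, a co-repressor, did not pass the edgeR test for doxycycline against DMSO in any line. Its log2 fold change (doxycycline over DMSO) was -0.16 ± 0.055 (SE) in EV, -0.11 ± 0.055 in sh4 and 0.056 ± 0.055 in shAMB, with adjusted p-values of 0.672, 0.117 and 0.378 (edgeR). The shAMB effect was above the EV effect (difference 0.21 ± 0.077, adjusted p = 0.0353). Among xenografts it was -0.23 ± 0.15 (adjusted p = 0.229). Under DMSO it was lower in sh4 than in EV (-0.29 ± 0.055, adjusted p = 0.0144). With length and GC trends removed, described further on, it was -0.24 in sh4 (adjusted p = 6e-04) and -0.30 in the xenografts (0.0409), both past the threshold, while limma on TPM gave 0.24 in shAMB (0.00537). Whether RUNX1T1 RNA fell thus depended on the processing, and the names of the groups rest on the labels. At the protein level, the study reports less RUNX1T1 in KELLY cells given doxycycline with either of its hairpins. It also reports loss of RUNX1T1 staining in KELLY tumours after knockdown. Whether those were the cultures and tumours sequenced here is not given in the sources used here, and RNA libraries do not measure protein. The 9 noradrenergic markers of KELLY, DBH and TH among them, averaged over 1 CPM (read counts put on one library size by TMM) in every group. Throughout, a gene is said to have changed where its adjusted p from edgeR's quasi-likelihood test, corrected by Benjamini and Hochberg over all genes tested, was under 0.05, and ± after a log2 fold change is its standard error.

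Levels of different genes were compared per kb of gene length. CHRNA3 was the highest of the 63 genes, at 177 ± 1.7 CPM per kb (mean ± SD, n = 3) in EV cells with DMSO and 157 ± 11.5 (n = 4) in control xenografts. In the same EV cells CHRNA5 was at 36.6 ± 2.47, CHRNB4 at 24.7 ± 3.42 and GRIK3 at 16.1 ± 1.38 CPM per kb. CHRNA7 at 11.4 ± 0.871, CHRNB2 at 11.1 ± 1.37 and GRIA2 at 10.3 ± 0.955 could not be ranked beyond their spread. Of the 63 genes, 30 stayed under 1 CPM in every group. The summed nicotinic level was 263 ± 4.97 CPM per kb in EV cells with DMSO. The other sums there were 35.1 ± 1.79 for GABA-A, 32.7 ± 2.98 for kainate, 18.9 ± 1.08 for AMPA and 3.9 ± 0.768 for NMDA genes.

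**Figure D1:**
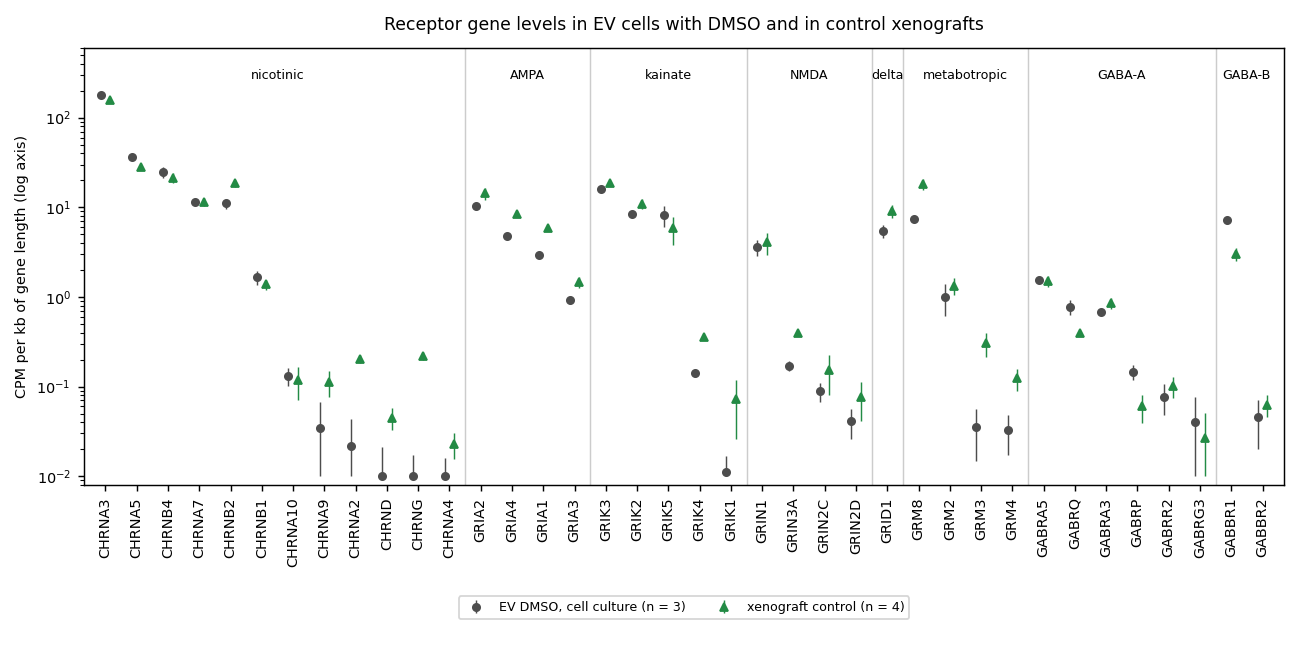
Mean level (CPM per kb of gene length, log axis) with SD of receptor genes reported here that reached 0.1 CPM per kb in any of the 8 groups, in EV cells with DMSO (circles, n = 3) and in control xenografts (triangles, n = 4), ordered by class. Values and error bars under 0.01 are drawn at 0.01. CHRNA3 lies above all others in both.

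Of the 63 genes, 33 passed the filter on low counts in culture and 43 in the xenografts, and 20 were tested in neither. GABRA6 and GABRD had no count in any library. The 20 untested genes also include GABRA2, GABRA4, GRIN2B, GRM5, GRM7, CHRNA1 and CHRNA6. The largest value of any untested gene in any library was 0.436 CPM, for GABRG3. At depths of 35115915 to 62378060 counts per library, 3 counts correspond to 0.0467 to 0.0865 CPM, the floor used here for single libraries.

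In the EV line no receptor gene passed the test for doxycycline against DMSO with edgeR, DESeq2 or limma on TPM. Over all genes the edgeR share was 0.0939%, and 3 receptor genes had an unadjusted p under 0.05. In the sh4 line 11 of 33 tested receptor genes changed (33.3%), 7 up and 4 down. Over all genes 40.9% changed, 22.9% up and 18% down. In the shAMB line 21 of 33 changed (63.6%), 17 up and 4 down, where 66% of all genes changed, 37.6% up and 28.4% down. In the xenografts 21 of 43 differed by label (48.8%), 17 higher and 4 lower with the knock-out label, where the share of all genes was 41.1%, with 21.2% higher and 19.9% lower. The share of receptor genes that changed was thus near that of all genes in each comparison, and nothing about receptor genes is read from the counts.

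The median log2 fold change of the receptor genes tested was 0.016 for sh4, 0.37 for shAMB and 0.39 for the xenografts. Over all genes tested it was -0.0046, 0.096 and 0.019. Genes that pass a filter through the group where they are high enter these values, and 8 genes of the culture test lay under the filter in at least 1 group. Among the 25 genes over it in every culture group, 10 changed in sh4 and 16 in shAMB, with medians of -0.013 and 0.26. Among the 36 that both xenograft groups held over it, 19 differed, with a median of 0.36.

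The effects of the 2 hairpins were also tested against each other and against EV. The sh4 effect differed from the EV effect in 11 of the 33 genes (32.6% of all genes), and the shAMB effect in 19 (45.5% of all genes). The sh4 and shAMB effects differed from each other in 21 of 33 (60.9% of all genes), and in 15 of these the sh4 value was the lower. Under DMSO, GABRA5 alone of the 33 differed between sh4 and EV (1.12% of all genes), and GABRA5 and GRIN3A between shAMB and EV (1.52% of all genes).

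**Figure D2:**
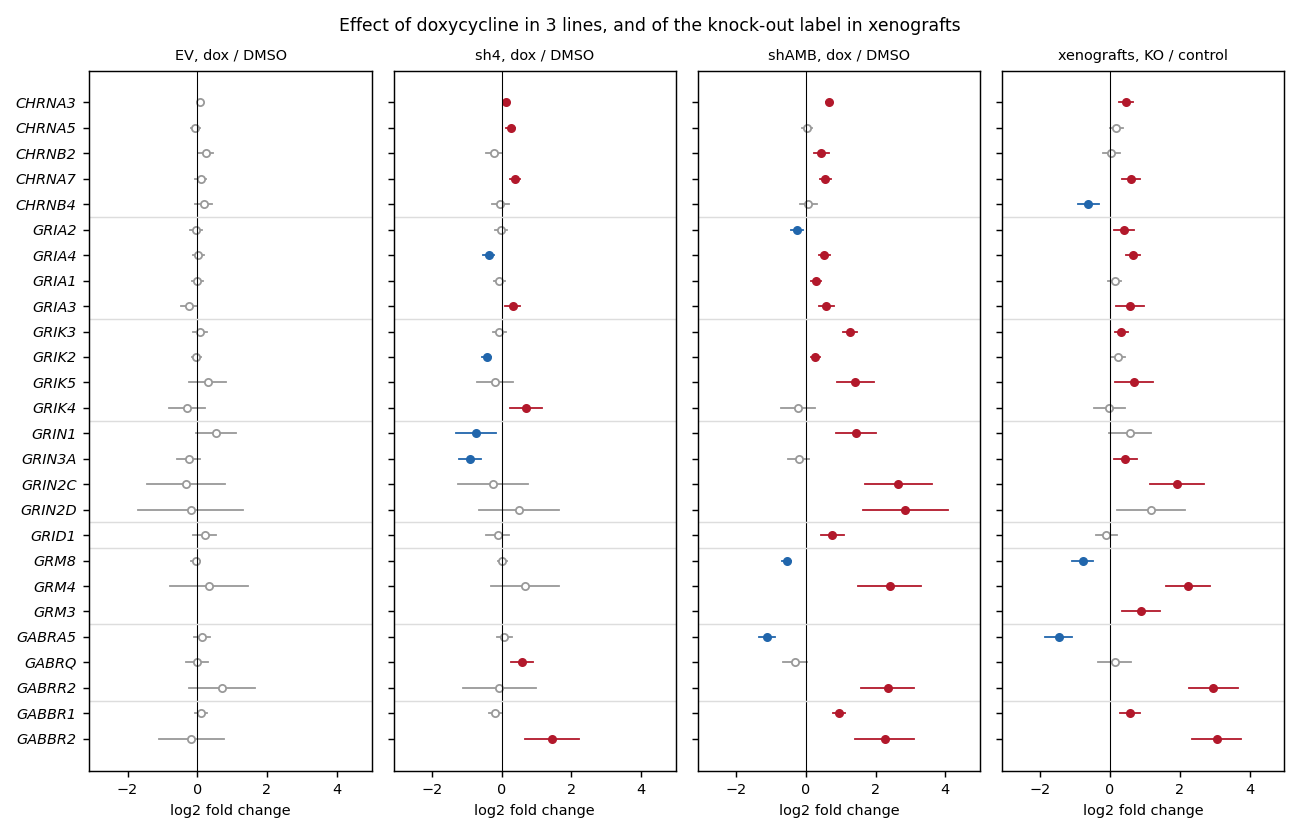
Log2 fold change (x axis) with its 95% confidence interval for receptor genes named by rule (rows, by class) for doxycycline over DMSO in the 3 culture lines and for the knock-out label over control in xenografts. Filled red or blue points had an adjusted p under 0.05 (higher or lower), open grey points did not. No filled point stands in the EV panel.

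Of 7 nicotinic genes tested in culture 3 rose and none fell in each hairpin line, and of 12 tested in the xenografts 5 were higher and 1 lower with the knock-out label. Calls over all genes were 40.9% (sh4), 66% (shAMB) and 41.1% (xenografts). Nothing is read from the counts by class, here or below. CHRNA3, the alpha subunit that binds acetylcholine in ganglionic receptors, rose in both hairpin lines and was higher in the knock-out-labelled xenografts. In shAMB its values were 578, 581 and 608 CPM with DMSO and 941, 932 and 911 with doxycycline, without overlap, a log2 fold change of 0.66 ± 0.033 (adjusted p = 1.3e-10). In the xenografts the controls held 532, 476, 497 and 563 CPM and the knock-out-labelled tumours 707, 734, 732 and 659, again apart, with 0.45 ± 0.090 on the log2 scale (adjusted p = 0.00229). The rise in sh4 was small. There 573, 576 and 573 CPM stood against 618, 648 and 620.4 (log2 0.13 ± 0.033, adjusted p = 0.00412), and its difference from the EV effect did not pass (0.062 ± 0.046, adjusted p = 0.307). That sh4 call was lost without the filter on low counts (adjusted p = 0.075) and in a fit of the sh4 libraries alone (0.09).

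CHRNA7, whose product can form the calcium-permeable alpha7 receptor by itself, rose in both hairpin lines and was higher in the knock-out-labelled xenografts. In sh4 the DMSO libraries held 43.3, 37.9 and 36.8 CPM and the doxycycline libraries 49, 51.4 and 53.6 (log2 0.38 ± 0.074, adjusted p = 0.000616). In shAMB 35.3, 30.8 and 34.4 became 48.2, 49.7 and 49.7 CPM (log2 0.55 ± 0.075, adjusted p = 9.26e-06). Control xenografts held 36.8, 43.5, 35.9 and 36.9 CPM and those labelled knock-out 52.3, 66.1, 64 and 49.4 (log2 0.60 ± 0.12, adjusted p = 0.00207). The groups did not overlap in any of these 3. In sh4 the difference from the EV effect was 0.29 ± 0.11 (adjusted p = 0.0482). That difference also passed with RLE factors, in DESeq2 and in limma on TPM. It did not pass without the filter (0.0953), with a replicate block (0.0637) or with length and GC trends removed (0.112). CHRFAM7A, a gene that duplicates part of CHRNA7 and shares reads with it, rose as well, by 0.27 ± 0.055 in sh4 (adjusted p = 9e-04), 0.21 ± 0.055 in shAMB (0.00313) and 0.58 ± 0.12 in the xenografts (0.00335) on the log2 scale. The counts are estimates made by the program RSEM, so the division of shared reads between these genes is itself estimated. The CHRNA7 values are uncertain to that extent.

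The stretches before the start sites of these genes are shown because both rose with shAMB and in the xenografts. They are RefSeq promoter sequence on GRCh38.p14, minus strand for CHRNA3 (chr15:78620997-78621146) and plus strand for CHRNA7 (chr15:32030333-32030482), 150 bases each. Capitals mark CANNTG, the E-box core, which includes CACGTG, the form that MYCN with its partner MAX prefers.
CHRNA3: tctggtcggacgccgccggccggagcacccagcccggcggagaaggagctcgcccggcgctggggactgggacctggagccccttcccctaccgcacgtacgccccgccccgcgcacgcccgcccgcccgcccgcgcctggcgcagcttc
CHRNA7: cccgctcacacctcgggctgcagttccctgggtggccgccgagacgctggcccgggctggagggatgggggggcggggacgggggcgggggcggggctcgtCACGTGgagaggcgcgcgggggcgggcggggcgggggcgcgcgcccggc
RefSeq promoter windows of 300 bases were available for 44 of the 63 genes. CACGTG occurred in 1 of the 44, that of CHRNA7 (2.27%), against 7.26% of 35116 promoters of the table. CATCTG, counted on both strands, occurred in 8 (18.2%, against 14.7%), and CANNTG in 29 (65.9%, against 68.7%). These are matches of letters and not binding sites.

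CHRNA5 and CHRNB4 lie beside CHRNA3 in a cluster on chromosome 15, and neither passed the test in shAMB. CHRNA5, an accessory subunit, rose in sh4, from 116, 122 and 122 to 159, 144 and 129 CPM (log2 0.26 ± 0.064, adjusted p = 0.00392), and the sh4 and shAMB effects differed (adjusted p = 0.0408). With length and GC trends removed that difference changed sign (-0.058, adjusted p = 0.308), with a rise in shAMB too (0.24), and limma on TPM gave it an adjusted p of 0.076. A fit of the sh4 libraries alone gave an adjusted p of 0.0594. CHRNA3 lies on the other strand, and 28.4% of the exon bases of CHRNA5 overlap genes on that strand, so that a count blind to strand would mix them. The use of strand in counting is not given in the sources used here. CHRNB4, the ganglionic beta subunit, was lower in the knock-out-labelled xenografts, at 33.3, 25.6, 27.7 and 23.5 against 35.8, 45.8, 39.8 and 48.7 CPM (log2 -0.63 ± 0.13, adjusted p = 0.0035). In culture CHRNB4 did not pass, with -0.039 ± 0.11 in sh4 and 0.068 ± 0.11 in shAMB. As a share of CHRNA3, CHRNA5 and CHRNB4 per kb, CHRNB4 took 8.63, 11.9, 10.2 and 10.9% in the control xenografts and 6.42, 4.8, 5.24 and 4.82% in the others. CHRNA3 took 68.3, 68.9 and 69% of all nicotinic level per kb in shAMB with DMSO and 76, 75.6 and 74.5% with doxycycline.

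CHRNB2, the beta subunit of the main brain receptor, rose in shAMB from 61, 54.6 and 63.2 to 73.9, 82.5 and 87 CPM (log2 0.45 ± 0.11, adjusted p = 0.00165). The shAMB effect did not differ from the EV effect at the threshold (0.21 ± 0.15, adjusted p = 0.27), and its direction changed with the correction for base composition given further on. In the xenografts 3 nicotinic genes under 1 CPM were higher with the knock-out label: CHRNA4 (0.127 against 0.967 CPM, log2 2.89 ± 0.39, adjusted p = 0.000243), CHRNA9 (0.259 against 0.952, 1.85 ± 0.36, 0.00215) and CHRND (0.119 against 0.488, 2.04 ± 0.40, 0.00218). CHRNA4 and CHRND passed the filter through 1 group only. CHRND belongs to the muscle receptor. The summed level of 6 skeletal muscle genes was 8.70 to 11.6 CPM with the knock-out label against 3.75 to 5.14 in controls, most of it MYH3. Of the 6, MYH3 (log2 1.00, adjusted p = 0.00109), ACTA1 (2.74, 0.000242) and DES (2.40, 0.000861) were higher with that label. MYH8, MYOG and CKM did not enter the test. Whether these genes have a part in the CHRND value was not tested. CHRNB1, the muscle beta subunit, held 3.36 to 4.87 CPM as group means and passed no test, and CHRNA2 reached 1.21 CPM in the knock-out-labelled xenografts without passing (0.55 ± 0.28, adjusted p = 0.147).

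All 4 AMPA receptor genes were tested. In sh4 1 rose and 1 fell, in shAMB 3 rose and 1 fell, and in the xenografts 3 were higher and none lower. Calls over all genes were 40.9% (sh4), 66% (shAMB) and 41.1% (xenografts). GRIA4 went in opposite directions with the hairpins. It fell in sh4 from 18.5, 19.2 and 20.5 to 16, 15.6 and 13.2 CPM (log2 -0.37 ± 0.071, adjusted p = 0.000556), a call lost in limma on TPM (-0.18, adjusted p = 0.0606). It rose in shAMB from 22.1, 24 and 22.4 to 33, 33.4 and 32.5 CPM (log2 0.53 ± 0.070, adjusted p = 8.21e-06), and the difference between the 2 effects was -0.90 ± 0.10 (adjusted p = 1.96e-06). In the xenografts it was higher with the knock-out label, at 54.7, 61.7, 59.4 and 63.5 against 42.4, 38, 36 and 35.8 CPM (log2 0.65 ± 0.090, adjusted p = 0.000271). Groups did not overlap in any of the 3.

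GRIA2 encodes the subunit whose edited form makes AMPA channels impermeable to calcium. It fell in shAMB from 52.1, 53.4 and 52.3 to 48, 42.7 and 40.9 CPM (log2 -0.26 ± 0.082, adjusted p = 0.0106). Its difference from the effect in EV missed the threshold (-0.23 ± 0.12, adjusted p = 0.112), and without shAMB doxycycline library 3 the adjusted p was 0.0524. The fall was also lost with length and GC trends removed (-0.065, adjusted p = 0.168) and in limma on TPM (-0.087, adjusted p = 0.419). In the xenografts it was higher with the knock-out label, at 98.3, 112, 87.3 and 119 against 95, 84.5, 72.7 and 66.5 CPM (log2 0.39 ± 0.13, adjusted p = 0.0353), with overlapping groups. This call was lost without any 1 of control libraries 2, 3 and 4 or knock-out-labelled libraries 2 and 4 (adjusted p up to 0.11), and without the filter (0.0647). As a description, GRIA2 went from 48.6, 49.2 and 49.7% of the AMPA level per kb to 38.5, 36.5 and 35.9% in shAMB. In sh4 the share was 49.7, 48.9 and 49.3% with DMSO and 52.2, 51.8 and 51.2% with doxycycline.

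GRIA3 rose in both hairpin lines and was higher in the knock-out-labelled tumours. Its values were 4.42, 3.91 and 4.09 and then 5.24, 5.51 and 4.71 CPM in sh4 (log2 0.32 ± 0.10, adjusted p = 0.0221), and 4.36, 4.47 and 3.93 and then 6.81, 5.93 and 6.46 in shAMB (0.59 ± 0.10, adjusted p = 0.000129). In the xenografts the controls held 5.1, 6.16, 4.48 and 4.78 CPM and the others 6.4, 9.97, 7.23 and 6.63 (log2 0.56 ± 0.18, adjusted p = 0.0305), without overlap. The sh4 call was lost without any 1 of DMSO libraries 2 and 3 and doxycycline libraries 1 and 2 (adjusted p up to 0.0963), and with length and GC trends removed (0.0567). The shAMB call was lost in limma on TPM (adjusted p = 0.0674). The xenograft call was lost without any 1 of control libraries 1, 3 and 4 and knock-out-labelled libraries 2 and 3 (up to 0.113). GRIA1 rose in shAMB, from 21.2, 18.8 and 19.2 to 25.6, 24 and 23 CPM (log2 0.29 ± 0.072, adjusted p = 0.00213).

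**Figure D3:**
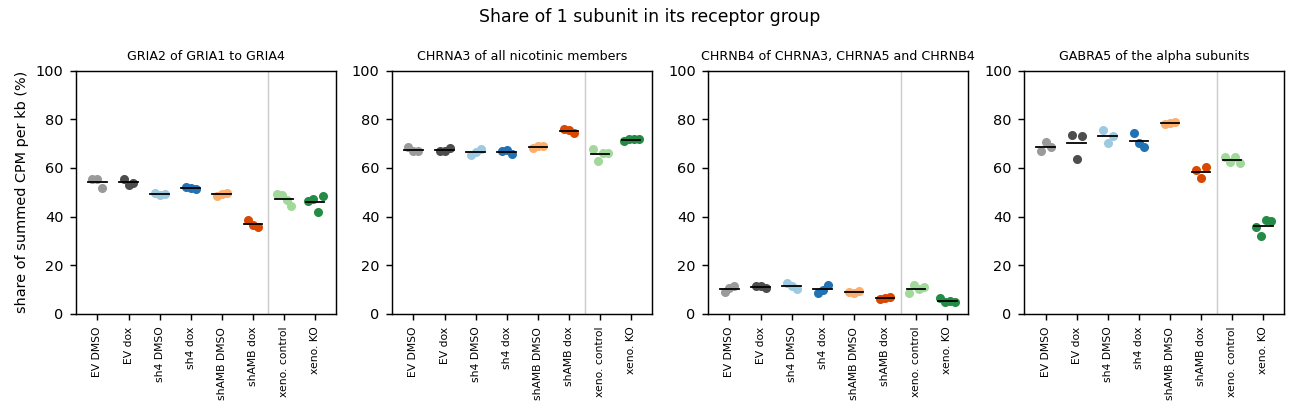
Share (%) of 1 subunit in the summed CPM per kb of its group, per library (points) with the group mean (line), in the 6 culture groups and the 2 xenograft groups. GRIA2 took 35.9% to 38.5% in the shAMB doxycycline libraries against 48.6% to 49.7% with DMSO, and GABRA5 32.2% to 38.6% in knock-out-labelled xenografts against 61.9% to 64.6% in controls.

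Of 4 kainate receptor genes tested in culture, 1 rose and 1 fell in sh4 and 3 rose in shAMB, and 2 of 5 were higher in the knock-out-labelled xenografts. Calls over all genes were 40.9% (sh4), 66% (shAMB) and 41.1% (xenografts). GRIK3, whose channels have low affinity for glutamate, went from 127, 108 and 119.7 CPM to 277, 274 and 306 in shAMB (log2 1.27 ± 0.090, adjusted p = 7.84e-09), and did not pass in sh4, at 142, 127 and 126 CPM with DMSO and 109, 127 and 141 with doxycycline (log2 -0.068 ± 0.089, 95% interval -0.26 to 0.12). In the xenografts it was 174, 175, 168 and 163 CPM in controls and 235, 207, 216 and 195 with the knock-out label (log2 0.33 ± 0.082, adjusted p = 0.00863), a call lost with length and GC trends removed (0.17, adjusted p = 0.105). GRIK5, an auxiliary high-affinity subunit that needs a partner to form channels, rose in shAMB from 23.3, 17.3 and 22.5 to 49, 53.3 and 66.3 CPM (log2 1.42 ± 0.25, adjusted p = 0.000133), of which 0.32 was left with length and GC trends removed (adjusted p = 1.18e-05). In the xenografts the GRIK5 groups overlapped (12.4, 28.4, 17.1 and 20.5 against 43.1, 30.6, 30.5 and 22.3 CPM, log2 0.69 ± 0.25, adjusted p = 0.0451), and the call was lost without any 1 of control libraries 1, 3 and 4 and knock-out-labelled libraries 1, 2 and 3 (adjusted p up to 0.119).

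GRIK2, another low-affinity subunit, went opposite ways with the 2 hairpins. It fell in sh4 from 34.8, 36.4 and 37.5 to 28.4, 28 and 24.7 CPM (log2 -0.42 ± 0.061, adjusted p = 4.09e-05). It rose in shAMB from 39.6, 42.1 and 40.1 to 51, 47.3 and 47.9 CPM (log2 0.26 ± 0.060, adjusted p = 0.00127), and the effects differed by -0.69 ± 0.086 (adjusted p = 6.63e-06). GRIK4, the other high-affinity subunit, rose in sh4 from 0.711, 0.629 and 0.686 to 0.992, 1.15 and 1.15 CPM (log2 0.70 ± 0.22, adjusted p = 0.0171). DESeq2 gave an adjusted p of 0.0528 for it, and the call was lost without DMSO library 2 or doxycycline library 2 (up to 0.0634). The sh4 effect on GRIK4 differed from that of shAMB (0.93 ± 0.32, adjusted p = 0.0196), though not in limma on TPM (adjusted p = 0.0972).

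The stretch before the GRIK3 start (chr1:37034516-37034665, minus strand) is shown as that of the kainate gene with the highest level per kb. Capitals again mark CANNTG.
GRIK3: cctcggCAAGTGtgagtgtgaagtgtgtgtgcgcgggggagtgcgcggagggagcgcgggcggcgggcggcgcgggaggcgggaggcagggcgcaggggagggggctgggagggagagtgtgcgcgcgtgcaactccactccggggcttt

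Of 4 NMDA receptor genes tested in culture 2 fell in sh4 and 3 rose in shAMB, and 2 of 5 were higher in the knock-out-labelled xenografts. Calls over all genes were 40.9% (sh4), 66% (shAMB) and 41.1% (xenografts). GRIN1, the subunit that every NMDA receptor contains, went in opposite directions with the 2 hairpins. In sh4 it fell from 29.7, 22.2 and 17.6 to 9.04, 11.5 and 21.2 CPM (log2 -0.74 ± 0.27, adjusted p = 0.0386), with overlapping groups, and the call was lost without any 1 of DMSO libraries 1 and 2 and doxycycline libraries 1 and 2 (adjusted p up to 0.163), and in limma on TPM (adjusted p = 0.0602). In shAMB it rose from 13.2, 9.28 and 13.9 to 27.7, 30.9 and 39.8 CPM (log2 1.44 ± 0.27, adjusted p = 0.000273). Its shAMB effect did not differ from the EV effect at the threshold (0.90 ± 0.38, adjusted p = 0.0679). GRIN1 in EV was 12, 14.4 and 18.2 CPM with DMSO and 22.2, 22.9 and 19.6 with doxycycline (log2 0.54 ± 0.27, not passing). The xenograft values, 11.5, 22, 18.4 and 15.3 and 38.5, 24.4, 22.2 and 14.6 CPM, overlapped and did not pass (adjusted p = 0.12).

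GRIN3A, a glycine-binding subunit that lowers calcium flow, fell in sh4 from 2.1, 1.73 and 1.86 to 1.09, 0.954 and 0.982 CPM (log2 -0.91 ± 0.15, adjusted p = 0.000134). In the xenografts it was higher with the knock-out label, at 3.85, 4.13, 4.27 and 4.31 against 3.18, 3.27, 2.85 and 2.94 CPM (log2 0.44 ± 0.15, adjusted p = 0.036), a call lost without any 1 of control libraries 1, 3 and 4 and knock-out-labelled libraries 2, 3 and 4 (up to 0.106), and with length and GC trends removed (0.055). Before treatment it was also higher in shAMB than in EV (0.81 ± 0.15, adjusted p = 0.00722). The glutamate-binding subunits GRIN2C and GRIN2D were low. GRIN2C went from 0.148, 0.104 and 0.321 to 1.14, 1.26 and 1.22 CPM in shAMB (log2 2.66 ± 0.45, adjusted p = 0.000102) and was 0.299, 0.79, 0.322 and 0.686 against 2.07, 2.5, 2.04 and 1.27 CPM in the xenografts (1.91 ± 0.35, adjusted p = 0.00153). GRIN2D rose in shAMB from 0.32, 0.026 and 0.0802 to 0.896, 0.927 and 1.38 CPM (2.85 ± 0.57, adjusted p = 0.00044), where the DMSO libraries held 13, 1 and 3 counts, and did not pass in the xenografts (1.17 ± 0.45, adjusted p = 0.0572). GRIN2C held all its libraries over the culture filter in 1 group and GRIN2D in 2, so that their high values in shAMB are part of what let them be tested.

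GRID1, a delta receptor gene whose product binds cerebellins at synapses, did not pass in sh4. It rose in shAMB from 29.7, 23.7 and 30.5 to 44.2, 49.5 and 48.2 CPM (log2 0.76 ± 0.15, adjusted p = 0.000449). In the xenografts it did not pass (-0.11 ± 0.14).

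Of 4 metabotropic glutamate receptor genes tested in culture 1 rose and 1 fell in shAMB and none passed in sh4. In the xenografts 2 of 6 were higher and 1 lower. Calls over all genes were 40.9% (sh4), 66% (shAMB) and 41.1% (xenografts). GRM8 and GRM4, group III receptors that both inhibit adenylate cyclase, went in opposite directions. GRM8, at 7.44 ± 0.133 CPM per kb in EV cells with DMSO against 0.0329 ± 0.0156 for GRM4, fell in shAMB from 24.2, 24.6 and 25.2 to 17, 18.2 and 15.3 CPM (log2 -0.55 ± 0.064, adjusted p = 1.96e-06). Xenografts held 79.3, 67.7, 56.5 and 61 CPM in controls and 35.8, 36.9, 32.5 and 47.8 with the knock-out label (log2 -0.79 ± 0.14, adjusted p = 0.0012). GRM4 rose in shAMB from 0.271, 0.156 and 0.267 to 0.873, 1.45 and 1.38 CPM (log2 2.41 ± 0.43, adjusted p = 0.000145). It was 0.555, 0.994, 1.11 and 0.853 against 5.44, 4.54, 4.13 and 2.56 CPM in the xenografts (2.24 ± 0.28, adjusted p = 0.000159), which is 4.73-fold. GRM4 held all its libraries over the culture filter in 2 groups. In sh4 the 95% interval for GRM8 was -0.12 to 0.15 on the log2 scale. GRM3, a group II receptor, was tested in the xenografts only, where it was higher with the knock-out label, at 2.58, 2.41, 1.78 and 2.69 against 1.32, 1.81, 0.931 and 1.1 CPM (0.88 ± 0.25, adjusted p = 0.0152), with overlapping groups. Without control library 4 the adjusted p was 0.0508. Its exons overlap an antisense gene over 18.9% of their bases. GRM2 passed no test, at -0.69 ± 0.27 in the xenografts (adjusted p = 0.0651).

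**Figure D4:**
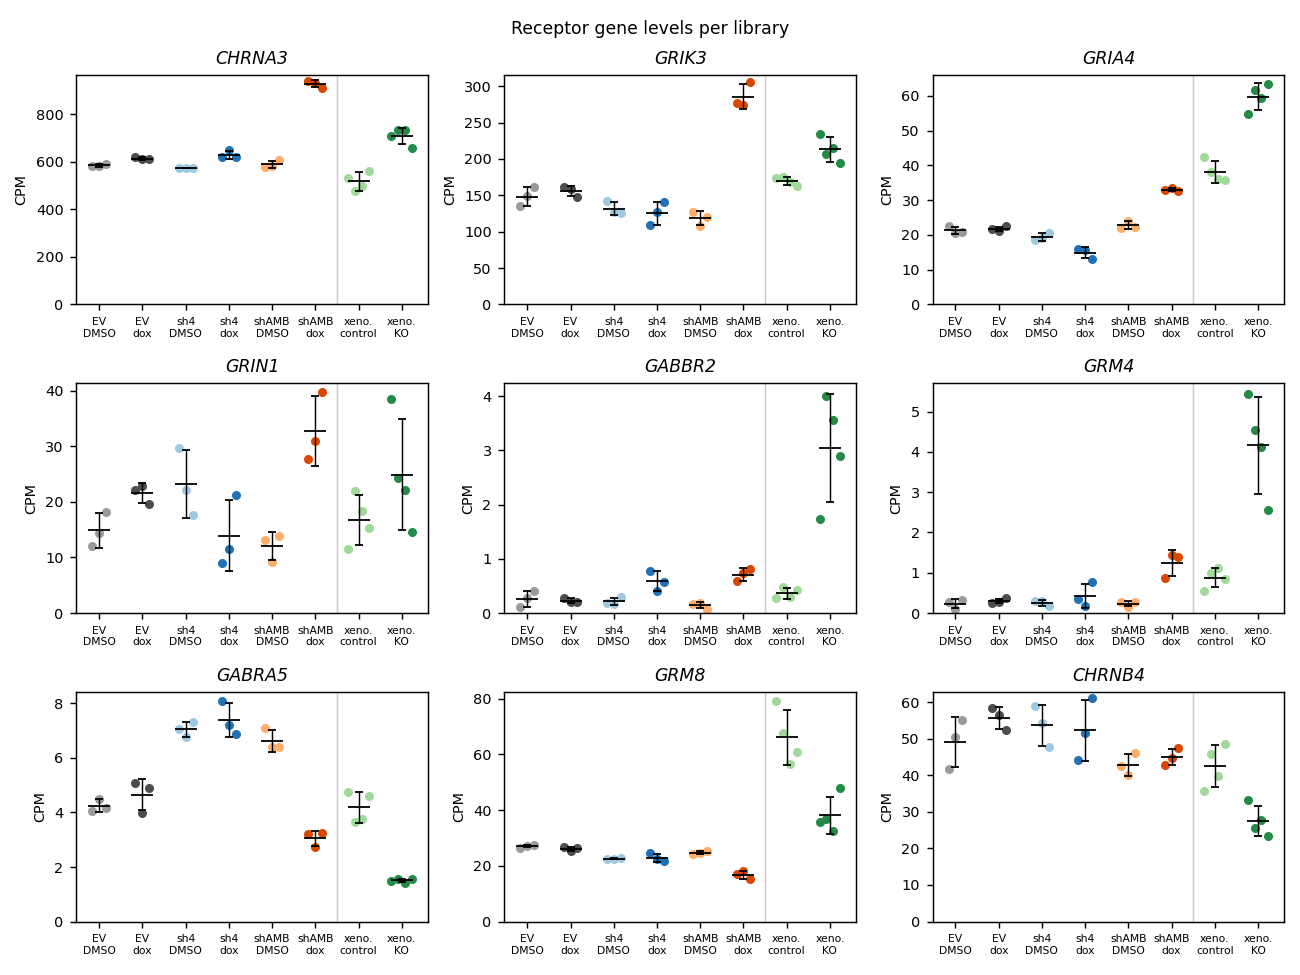
Level (CPM, from 0) of 9 receptor genes in each library (points) with mean and SD (bars) in the 6 culture groups (n = 3) and 2 xenograft groups (n = 4). GRIA4 fell with doxycycline in sh4 and rose in shAMB, GABBR2 and GRM4 were higher in the knock-out-labelled xenografts, and GABRA5 and GRM8 were lower there and in shAMB with doxycycline.

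GABA-A receptors are pentamers, mostly of alpha, beta and gamma subunits. Of 6 genes tested in culture 1 rose in sh4, and 1 rose and 1 fell in shAMB. In the xenografts 1 of 7 was higher and 1 lower. Calls over all genes were 40.9% (sh4), 66% (shAMB) and 41.1% (xenografts). No gamma subunit averaged 1 CPM in any group.

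GABRA5, the alpha subunit best known from tonic inhibition in the hippocampus, showed the largest log2 fall among the receptor genes tested in shAMB and in the xenografts. It went from 7.1, 6.39 and 6.39 to 3.2, 2.73 and 3.23 CPM in shAMB (log2 -1.12 ± 0.11, adjusted p = 2.23e-07), 2.17-fold lower. In the xenografts the controls held 4.76, 3.66, 3.76 and 4.6 CPM and the knock-out-labelled tumours 1.48, 1.55, 1.42 and 1.58 (log2 -1.48 ± 0.17, adjusted p = 9.17e-05), 2.78-fold lower. In sh4 it held 7.07, 6.77 and 7.32 CPM with DMSO and 8.1, 7.22 and 6.9 with doxycycline (log2 0.071 ± 0.10, adjusted p = 0.605), and the difference between the hairpins was 1.19 ± 0.15 (adjusted p = 6.23e-06). Before treatment both hairpin lines were already above EV (4.04, 4.5 and 4.18 CPM), by 0.73 ± 0.11 (sh4, adjusted p = 0.00158) and 0.64 ± 0.11 (shAMB, adjusted p = 0.00358) on the log2 scale. Its share of the alpha subunits per kb was 64.6, 62.6, 64.5 and 61.9% in control xenografts and 35.9, 32.2, 38.6 and 38.4% in the others.

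GABRQ, the theta subunit, rose in sh4 from 1.46, 1.42 and 1.3 to 2.36, 1.85 and 2.09 CPM (log2 0.59 ± 0.15, adjusted p = 0.00428). GABRR2, a rho subunit of the receptors once called GABA-C, rose from 0.197, 0.234 and 0.16 to 1.07, 0.997 and 0.969 CPM in shAMB (log2 2.34 ± 0.35, adjusted p = 2.89e-05) and was 0.192, 0.271, 0.143 and 0.234 against 1.26, 2.43, 1.37 and 1.54 CPM in the xenografts (2.96 ± 0.32, adjusted p = 6.49e-05). The shAMB doxycycline group was the 1 culture group with all libraries over the filter. GABRA3 passed no test, at group means of 1.83 to 3.01 CPM.

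The GABA-B receptor is an obligate pair of GABBR1, which binds GABA, and GABBR2, which couples to the G protein. Both rose in shAMB and were higher in the knock-out-labelled xenografts. GABBR1 went from 27.8, 24.9 and 25.1 to 48.3, 47.4 and 54.7 CPM in shAMB (log2 0.95 ± 0.082, adjusted p = 7.18e-08) and was 12.2, 16, 11.4 and 12.2 against 20.5, 20.4, 17 and 19.1 CPM in the xenografts (0.57 ± 0.13, adjusted p = 0.00581). GABBR2 was lower per kb, at 0.0453 ± 0.025 against 7.13 ± 0.607 CPM per kb for GABBR1 in EV cells with DMSO. It rose in sh4 from 0.192, 0.157 and 0.294 to 0.779, 0.409 and 0.564 CPM (log2 1.45 ± 0.37, adjusted p = 0.00481) and in shAMB from 0.172, 0.182 and 0.0802 to 0.582, 0.734 and 0.808 (2.26 ± 0.39, adjusted p = 0.000123). In the xenografts it was 0.277, 0.474, 0.287 and 0.418 CPM in controls and 1.73, 4.01, 3.57 and 2.9 with the knock-out label, 8.35-fold higher (3.06 ± 0.32, adjusted p = 5.05e-05). The groups did not overlap in any of these. For GABBR2 the sh4 effect differed from the EV effect by 1.62 ± 0.57 (adjusted p = 0.0406). The difference also passed with RLE factors, with length and GC trends removed and in limma on TPM. It did not pass without the filter (0.0552), with a replicate block (0.0529) or in DESeq2 (0.0654). GABBR2 held all its libraries over the culture filter in 2 of 6 groups, those of sh4 and shAMB with doxycycline, so its high values there are part of what let it be tested in culture. GABBR1 in sh4 did not pass (-0.20 ± 0.082, adjusted p = 0.0612), and neither did its difference from the EV effect (0.0623). Its fall in sh4 passed with RLE factors (adjusted p = 0.04), without the filter (0.0464), with length and GC trends removed (0.036) and in DESeq2 (0.0322). It did not pass with a replicate block (0.0565), in limma on TPM (0.805) or in a fit of the sh4 libraries alone (0.17). Nor did it without the 2 sh4 libraries of highest GC tilt (0.0507).

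Start-site stretches are shown for 3 low genes whose rise in shAMB was over 4-fold, a choice made after their values were seen. GRM4 and GRIN2C rose as much, but are named only. The stretches are GABBR2 (chr9:98708936-98709085, minus strand), GABRR2 (chr6:89315300-89315449, minus strand) and GRIN2D (chr19:48393518-48393667, plus strand), 150 bases each on GRCh38.p14, in which no CANNTG occurred.
GABBR2: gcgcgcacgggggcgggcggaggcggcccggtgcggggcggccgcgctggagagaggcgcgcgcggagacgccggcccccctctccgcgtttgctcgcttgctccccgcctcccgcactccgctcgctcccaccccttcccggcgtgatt
GABRR2: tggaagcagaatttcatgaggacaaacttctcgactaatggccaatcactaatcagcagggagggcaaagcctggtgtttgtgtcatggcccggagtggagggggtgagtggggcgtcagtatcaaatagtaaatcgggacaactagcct
GRIN2D: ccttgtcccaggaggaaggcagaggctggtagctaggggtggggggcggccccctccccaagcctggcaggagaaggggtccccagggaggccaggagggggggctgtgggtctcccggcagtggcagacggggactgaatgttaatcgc
They differ in base composition. The 300-base window of GABBR2 was 79% G and C with a CpG ratio (observed over expected) of 1.08, that of GRIN2D 62.3% with 0.276, and that of GABRR2 49.3% with 0.276. The medians over all promoters were 58.7% and 0.579.

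Across comparisons, 15 receptor genes changed both in shAMB and in the xenografts, and 14 of them in the same direction. Among these were CHRNA3, CHRNA7, GRIA3, GRIA4, GRIK3, GRIK5, GRIN2C, GRM4, GABRR2, GABBR1 and GABBR2, all higher, and GRM8 and GABRA5, both lower. GRIA2 was the exception. Leaving out GABBR2, GABRR2, GRIN2C and GRM4, which lay under the culture filter in at least 1 group, 11 changed in both and 10 of them in the same direction. Over all genes changed in both, 1.93% went in opposite directions. The tumours may carry the shAMB hairpin, as said above, so these comparisons may not be of separate hairpins. Between the hairpin lines 7 receptor genes changed in both. CHRNA3, CHRNA7, GRIA3 and GABBR2 rose in both, while GRIA4, GRIK2 and GRIN1 fell in sh4 and rose in shAMB, and over all genes 43.8% were opposite. Between sh4 and the xenografts 6 changed in both, with GRIA4 and GRIN3A opposite (33.2% over all genes).

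Libraries also differed in how strongly genes rich in G and C were counted, and this moved with treatment in the shAMB line. The tilt of a library was taken as the median log2 deviation of genes over 60% GC minus that of genes under 40% GC. It was -0.77 to -0.37 in the shAMB DMSO libraries and 0.067 to 0.60 in those with doxycycline. In sh4 the groups overlapped, at -0.0096 to 0.75 with DMSO and -0.54 to 0.65 with doxycycline, and in the xenografts at -0.64 to 0.30 and -0.73 to 0.67. With the length and GC trends of each library removed, the shAMB log2 fold change of GRIN1 (transcript 65.7% GC) went from 1.44 to 0.30, of GRIK5 (65.3%) from 1.42 to 0.32 and of GRIN2D (69%) from 2.85 to 1.41.

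The same correction took GRIK3 from 1.27 to 0.71, GABBR1 from 0.95 to 0.53 and GRID1 from 0.76 to 0.38, and all 6 stayed past the threshold. CHRNB2 changed sign, from 0.45 to -0.092 (adjusted p = 0.0515), and GRIA2 lost its call (-0.065, adjusted p = 0.168). CHRNB4 and CHRNA5, not called before, became -0.32 and 0.24 (adjusted p = 2.16e-06 and 7.75e-06). GABRA5 (48% GC), GABRR2 (46.4%) and GABBR2 (53.3%) kept -1.12, 2.46 and 1.94. In sh4 the fall of GRIN1 went from -0.74 to -0.44, and within each sh4 group the GRIN1 values had the same order as the tilts of the libraries. What sets the tilt was not tested.

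**Figure D5:**
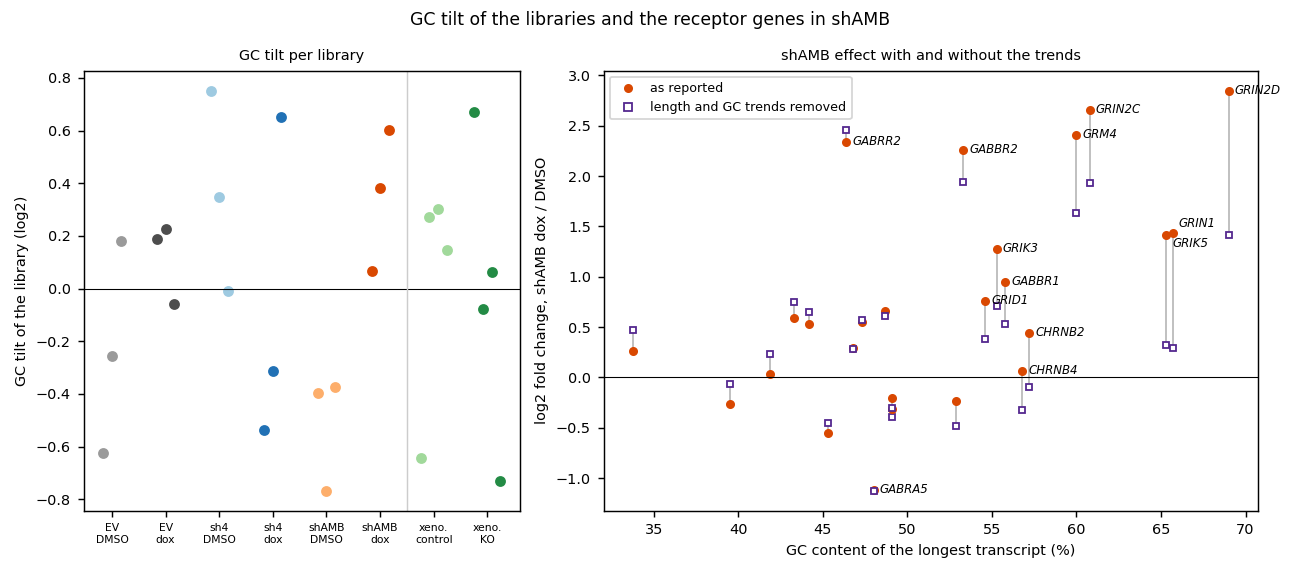
Left, GC tilt (log2) of each library by group. Right, log2 fold change of the named receptor genes in shAMB (doxycycline over DMSO) against the GC content (%) of the longest transcript, as reported (filled circles) and with length and GC trends removed (open squares). GRIN1 went from 1.44 to 0.30 and GABRA5 stayed at -1.12.

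Around the receptors, genes of acetylcholine, GABA and glutamate handling were read from the same fits, and every gene named from these lists passed the test in the comparison given. Over all genes, 37.6% rose and 28.4% fell in shAMB, 22.9% rose and 18% fell in sh4, and 21.2% were higher and 19.9% lower in the xenografts. The lists were not tested as sets. For acetylcholine, 6 of 7 listed genes were tested. In shAMB 3 rose and 3 fell, in the xenografts 3 were higher and 2 lower, and in sh4 1 rose and 1 (PRIMA1, the membrane anchor of acetylcholinesterase, -0.50 ± 0.10) fell. SLC18A3, the vesicular acetylcholine transporter, went from 0.546 ± 0.294 to 3.41 ± 0.806 CPM in shAMB (log2 2.64 ± 0.44, adjusted p = 7.16e-05), and COLQ, the collagen tail of the esterase, rose by 1.42 ± 0.17. CHAT, which makes acetylcholine, was 1.87 ± 0.439 CPM in control xenografts and 5.69 ± 1.44 with the knock-out label (1.61 ± 0.25, adjusted p = 0.000538). BCHE, which breaks it down, fell in shAMB from 28 ± 1.83 to 9.79 ± 1.33 CPM (-1.52 ± 0.10, adjusted p = 5.48e-09) and was lower in the xenografts (-1.72 ± 0.17).

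Of the GABA enzymes and transporters 6 of 11 were tested in culture and 7 in the xenografts. In shAMB 3 rose and 1 fell, in sh4 2 rose and 1 fell, and in the xenografts 4 were higher and none lower. Calls over all genes were 66% (shAMB), 40.9% (sh4) and 41.1% (xenografts). The GABA transporters SLC6A13 and SLC6A12 rose in shAMB, by 3.23 ± 0.38 and 2.50 ± 0.29 on the log2 scale, to 1.16 ± 0.139 and 1.43 ± 0.121 CPM. In the knock-out-labelled xenografts they were higher by 3.08 ± 0.24 and 2.75 ± 0.35. In sh4 SLC12A2, a chloride importer, changed by 0.45 ± 0.077 and ABAT, which breaks GABA down, by -0.34 ± 0.043. SLC12A5, the chloride extruder that makes GABA inhibitory, rose in shAMB from 0.541 ± 0.133 to 1.88 ± 0.406 CPM (1.79 ± 0.25, adjusted p = 1.42e-05). SLC32A1, the vesicular GABA transporter, was 0.0916 ± 0.0751 CPM in control xenografts and 1.05 ± 0.262 in the others (3.54 ± 0.45, adjusted p = 0.000158).

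Scaffolds of the postsynaptic density rose in shAMB in 13 of 22 tested genes and fell in 2, beside 37.6% up and 28.4% down over all genes. In sh4 2 rose and 3 fell (22.9% and 18% over all genes), and in the xenografts 9 of 23 were higher and 1 lower (21.2% and 19.9%). DLG2, the scaffold PSD-93, went from 4.26 ± 0.337 to 38.1 ± 0.697 CPM in shAMB (log2 3.16 ± 0.089, adjusted p = 2.35e-13) and was 2.64 ± 0.618 against 12.4 ± 4.06 CPM in the xenografts (2.24 ± 0.26, adjusted p = 9.26e-05). SHANK1 rose by 1.94 ± 0.36 in shAMB, and NPTX1, a neuronal pentraxin that gathers AMPA receptors, by 4.98 ± 0.44, from 0.034 ± 0.0132 to 1.17 ± 0.0244 CPM. DLGAP2 was higher (1.56 ± 0.19) and DLGAP3 lower (-1.18 ± 0.31) in the knock-out-labelled tumours. In sh4 DLGAP4 (-0.40 ± 0.13) and DLG3 (-0.38 ± 0.073) fell.

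Among AMPA and kainate auxiliary subunits 12 of 17 were tested. In shAMB 5 rose and 5 fell, in sh4 2 rose and 3 fell, and in the xenografts 1 was higher and 5 lower. Calls over all genes were 66% (shAMB), 40.9% (sh4) and 41.1% (xenografts). NETO1, which slows kainate receptors, fell in sh4 (-0.64 ± 0.064, adjusted p = 9.51e-07) and shAMB (-0.98 ± 0.065, adjusted p = 3.34e-09) and was lower in the xenografts (-0.79 ± 0.12, adjusted p = 0.000461). Its relative NETO2 rose in sh4 from 157 ± 10.9 to 244 ± 20.9 CPM (0.64 ± 0.061) and fell in shAMB from 176 ± 4.36 to 115 ± 4.59 (-0.61 ± 0.062). CACNG8, an AMPA receptor auxiliary subunit, fell in sh4 (-0.57 ± 0.12), rose in shAMB (1.26 ± 0.12) and was higher in the xenografts (1.20 ± 0.21). PRRT1 rose in shAMB (1.53 ± 0.38), and CNIH2 was lower in the xenografts (-0.85 ± 0.16).

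Nicotinic chaperones and accessory proteins rose in 5 and fell in 1 of 8 tested genes in shAMB, and rose in 3 and fell in 1 in sh4. In the xenografts 4 of 9 were higher and 1 lower. The share called over all genes was 66% in shAMB, 40.9% in sh4 and 41.1% in the xenografts. RIC3, a chaperone of alpha7 receptors, went from 14.8 ± 1.33 CPM in control xenografts to 23 ± 2.76 (0.64 ± 0.12, adjusted p = 0.00175) and rose by 0.26 ± 0.095 in sh4. LYNX1, a membrane protein that dampens nicotinic receptors, fell in sh4 (-0.74 ± 0.28, adjusted p = 0.044) and rose in shAMB (1.96 ± 0.27, adjusted p = 1.33e-05), and was higher in the xenografts (1.74 ± 0.36). AGRN and LY6E rose in shAMB (2.25 ± 0.41 and 1.11 ± 0.31), UNC50 rose in sh4 (0.51 ± 0.078), and LYPD6 was lower in the xenografts (-1.17 ± 0.17).

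Of GABA receptor scaffolds and trafficking genes 14 of 15 were tested, with 7 up and 5 down in shAMB, 1 up and 3 down in sh4, and 1 higher and 5 lower in the xenografts, where 66%, 40.9% and 41.1% of all genes were called. UBQLN1, which stabilises GABA-A subunits, fell in sh4 (-1.03 ± 0.063, adjusted p = 3.58e-09) and shAMB (-1.19 ± 0.063, adjusted p = 2.64e-10). NLGN2 and KCTD16, an auxiliary subunit of GABA-B receptors, rose in shAMB (0.99 ± 0.16 and 0.86 ± 0.12), and KCTD16 was 1.13 ± 0.0291 against 8.3 ± 2.09 CPM in the xenografts (2.87 ± 0.21, adjusted p = 8.44e-06). LHFPL4 was lower there (-0.69 ± 0.22). In sh4 GABARAPL1 rose (0.68 ± 0.070) and KCTD12 fell (-0.31 ± 0.065). Of 8 tested genes for glutamate synthesis and transport, 6 rose and 1 fell in shAMB (37.6% and 28.4% over all genes), and 4 rose in sh4 (22.9% over all genes). In the xenografts 4 of 9 were higher and 1 lower. SLC17A7, a vesicular glutamate transporter, rose in shAMB (1.64 ± 0.27) and was higher in the xenografts (1.97 ± 0.37). SLC1A2 and SLC1A3, which take up glutamate, rose in sh4 (0.43 ± 0.14 and 0.59 ± 0.065) and changed by 0.76 ± 0.14 and -0.50 ± 0.066 in shAMB and by 1.08 ± 0.20 and -0.56 ± 0.10 in the xenografts. GLUL, which makes glutamine from glutamate, rose by 0.10 ± 0.037 in sh4.

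Summed CPM, not scaled for gene length, was lower for markers of other cell types than for those of neuroblastoma. Counts were made on the human genome, so in the xenografts these sums cannot give the level of mouse cells. Summed levels in the 26 libraries were 3.79 to 9.20 CPM for 5 Schwann cell markers, 0.702 to 3.17 for 2 astrocyte, 0.558 to 2.25 for 4 endothelial and 0.570 to 2.09 for 4 leukocyte markers. The 5 fibroblast markers summed to 12.7 to 45.8 CPM, highest in sh4 with doxycycline (31.5 to 45.8, against 20.6 to 25.0 with DMSO), mostly COL1A1, with COL1A2 at most 0.205 CPM as a group mean. The skeletal muscle sum was 7.97 to 9.62 CPM in shAMB with doxycycline against 3.15 to 3.53 with DMSO, and MYOG had no count in culture. The noradrenergic sum was 3554 to 4258 CPM in the DMSO groups and EV with doxycycline, 4953 to 6355 in sh4 and 7536 to 8313 in shAMB with doxycycline, and 3545 to 4350 against 6964 to 9303 in the xenografts, most of it MYCN. The part of these lists in the receptor results was not tested. In bulk libraries fewer cells of a type and less RNA per cell cannot be told apart.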

How the data were processed

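The labels name a stranded kit for total RNA and paired reads, but also polyA RNA as the molecule. The authors deposited expected counts (estimated counts from RSEM, which need not be whole) and TPM (transcript levels that RSEM scaled for length and library) for 26485 genes, with hg38, STAR, SAMtools and RSEM given in the processing notes of the submitters. Whether counting used strand, and how mouse reads were handled, is not given in the sources used here.

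From these files, expected counts were rounded and fitted in R 4.3.3 with edgeR 4.0.16. The filter was filterByExpr (minimum 0.244 CPM in culture, 0.185 in xenografts), TMM gave the scaling factors, and testing used the quasi-likelihood F test (two-sided), with Benjamini-Hochberg adjustment over all 14905 or 15960 genes kept. The 18 culture libraries formed 1 fit and the 8 xenografts another, with 9 comparisons. CPM used TMM-adjusted totals. Depth was 35115915 to 54736733 counts in culture and 47346063 to 62378060 in xenografts. No molecular identifiers are named, so counting limits cover counting error only. Replicates differed by more than sampling noise and each counted once.

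Receptor genes were named in the text where a group mean reached 1 CPM and at least 1 of the EV, sh4, shAMB and xenograft comparisons passed. From each partner list the up to 3 genes with the largest called change and a group mean of 1 CPM or more in that comparison were named. A few genes that the rules cover are not reported here, in text or figures. The shAMB value of NETO2 was added after values were seen. The members, the partner lists and the marker lists were chosen with earlier results of these data known. Alternatives were RLE factors, no filter, DESeq2 1.42.0, limma 3.58.1 on log2(TPM + 0.1), a replicate block, length and GC trends removed, only the 2 groups compared, and leaving out each library. Leaving out libraries with the strongest GC tilt was added after seeing the data. The fitting was tested on simulated data.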

Additional observations from a re-analysis of the deposited data

Results flagged for a closer look

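A test of the difference between the doxycycline effects of sh4 and shAMB passed for the receptor genes given here, among others. Each value is the sh4 minus the shAMB log2 fold change, with its adjusted p from edgeR over all genes. The sh4 effect was lower for CHRNA3 (-0.52, 1.56e-07), GRIK3 (-1.34, 3.61e-07), GABBR1 (-1.15, 6.92e-07), GRIA4 (-0.90, 1.96e-06), GRIK2 (-0.69, 6.63e-06), GRIN1 (-2.18, 0.000191) and GRIK5 (-1.61, 0.00103). It was also lower for CHRNB2 (-0.67, 0.00131), GRIN2C (-2.90, 0.00163), GRID1 (-0.87, 0.00267), GABRR2 (-2.41, 0.00383), GRIA1 (-0.36, 0.00666), GRIN3A (-0.71, 0.00737), GRIN2D (-2.35, 0.0203) and GRM4 (-1.74, 0.0285). The sh4 effect was higher for GABRA5 (1.19, 6.23e-06), GRM8 (0.57, 7.32e-05), GABRQ (0.90, 0.00217), GRIK4 (0.93, 0.0196) and CHRNA5 (0.23, 0.0408). With length and GC trends removed, CHRNA5 changed sign (-0.058, adjusted p = 0.308), the calls of CHRNB2 (-0.065, 0.331), GRIN2D (-0.50, 0.469) and GRM4 (-0.87, 0.156) were lost, and GRIK5 went to -0.19 (0.0205). In limma on TPM the calls of CHRNA5 (0.076) and GRIK4 (0.0972) were lost.

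In 2 of 52 groups of 4 xenografts tested for the named receptor genes, 1 library stood apart by Dixon's criterion, which chance meets in about 1 of 20 groups. CHRNA7 was 43.5 CPM in control library 2 against 35.9 to 36.9 CPM in the other controls. GRIA1 was 37.1 CPM in control library 1 against 31.6 to 32.2 CPM in the others.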

How the results depend on the processing

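With length and GC trends removed, the count of changed receptor genes was 18 in sh4 (11 as reported), 9 for sh4 DMSO against EV DMSO (1 as reported) and 5 for shAMB DMSO against EV DMSO (2 as reported), and CHRNB2 in shAMB reversed (-0.092, adjusted p = 0.0515). RUNX1T1 then passed in sh4 (-0.24) and in the xenografts (-0.30), and limma on TPM called it higher in shAMB (0.24). With only the 2 groups compared in the fit, the counts were 7 in sh4, 0 for sh4 DMSO and 1 for shAMB DMSO against EV DMSO. DESeq2 gave 3 and limma on TPM 2 for sh4 DMSO against EV DMSO, and limma on TPM gave 8 in the xenografts. TPM moved the median of all genes by 0.17 to 0.22 (log2) in sh4, in shAMB and in their differences from EV. Leaving out 1 library gave 1 to 2 for each DMSO comparison and 6 to 14 for the sh4 minus EV effect, with 6 or 7 without any 1 of EV DMSO 1 or 2, EV doxycycline 2 or 3, sh4 DMSO 1 or 2 and sh4 doxycycline 2. The sh4 log2 fold change of RUNX1T1 ranged from -0.16 (without doxycycline library 2, adjusted p = 0.0434) to -0.076. The cause of these changes was not tested, other than fewer libraries in the fits that leave some out. Shares of all genes called under these settings are not given here, so nothing about receptor genes is read from these counts.

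Of 50 called values of named receptor genes, RLE factors kept the direction and the call of 50, DESeq2 of 49, the length and GC trends of 45, no filter of 44 and limma on TPM of 33. Leaving out, after seeing the data, the 2 sh4 libraries or the 3 xenograft libraries with the largest GC tilt kept 10 of 11 and 15 of 18 calls. Lost were GRIK4 (adjusted p = 0.0534), GRIK5 (0.0919), GRIN3A (0.0632) and GRM3 (0.122).

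Replicate numbers are shared between groups, and the correlations of same-numbered libraries ranged from -0.92 to 0.64. With 3 or 4 libraries per group, and GC tilts that differ within groups, this cannot decide whether the numbers pair the samples. With the number as a replicate block the counts were 11 in sh4, 21 in shAMB, 18 in the xenografts, 9 and 18 for the sh4 and shAMB effects minus EV and 21 between the hairpins. The share of all genes is not given for this setting either. In the xenografts GRIA2 (0.07), GRIK5 (0.0932) and GRIN3A (0.11) lost their calls. Depth limits the low genes: under DMSO, GRM4, GABBR2, GRIN2C, GABRR2 and GRIN2D rest on 1 to 25 counts per library.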
